A study of Mus musculus with 33 samples.

Results

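The genes described here are 9 transcription factors of the heart muscle lineage, Gata4, Gata6, Tbx5, Tbx20, Hand2, Mef2a, Mef2c, Hey2 and Irx4, together with the homeobox factor Meis1. They were chosen by symbol from the gene column of a read count table, and all 10 symbols were found among its 14862 gene rows. The table covers 33 single cells from mouse heart ventricles.

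All cells came from transgenic mice carrying mAG-hGem, a fusion of Azami green to part of geminin that belongs to the FUCCI cell cycle reporters and accumulates in cells that have left G1. The promoter of the transgene and the mouse strain are not given in the sources used here. Hearts were taken at embryonic day 14.5 (E14.5) or postnatal day 5 (P5), digested with enzymes, and sorted by flow cytometry into single mAG-hGem positive cells, taken as cycling, and mAG-hGem negative cells. The RNA of each cell was amplified as antisense RNA before sequencing. Per the labels, cells were kept when PCR found Tnnt2, a troponin of cardiomyocytes, and did not find a marker gene of other heart cells. At E14.5 there were 10 positive and 11 negative cells, and at P5 there were 6 of each kind. The labels name no animal, so each group counts as 1 sample, and no comparison below has a replicate check or a test.

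Gata4 and Gata6 are zinc finger proteins, Tbx5 and Tbx20 T-box proteins, Mef2a and Mef2c MADS-box proteins, and Hand2 and Hey2 basic helix-loop-helix proteins. In the developing heart these factors bind the control regions of contractile genes and of each other, often in shared complexes, and loss of several of them arrests heart formation in mice. Hey2 and Irx4 are known for keeping the ventricular programme apart from the atrial one, and Meis1 is known as a regulator of cell cycle exit in postnatal cardiomyocytes.

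Depth ranged from 2.55 to 38.5 M counts per cell (M stands for 1000000), with a median of 12.8 M. Values are counts per 1000000 of a cell's total (CPM), or summed counts of a group on the same scale. Their intervals are exact Poisson or exact Clopper-Pearson intervals at 95% and cover counting error only, since amplified reads are not independent molecules. The summed CPM of 20 G2/M genes was 1016 to 14351 in E14.5 positive and 2.34 to 2448 in E14.5 negative cells, so these ranges overlapped. The labelled cell type did not hold for every cell. All 13 cardiomyocyte markers together reached 16259 to 39012 CPM in E14.5 positive and 17746 to 43526 CPM in E14.5 negative cells, but only 0.553 to 3290 CPM in the cells labelled P5 negative. In L2P12 of the P5 positive group and in 5 of the 6 negative cells of that age, 9 endothelial markers summed to 13371 to 38559 CPM and led all other marker lists. In the P5 negative cell L2N12 the leading list was that of fibroblasts and mural cells, at 19501 CPM. The E14.5 negative cell N10 held both cardiomyocyte markers, at 23062 CPM, and fibroblast and mural markers, at 46798 CPM. Between P5 positive and P5 negative cells, reporter signal and cell type therefore cannot be told apart, and between P5 and E14.5 negative cells age and cell type cannot. The ratios of the other comparisons are also given without L2P12 or N10.

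In the median cell, more of the factors were present in the embryonic groups than in the P5 groups, but single cells overlapped. The share of all genes at 10 CPM was not counted, so this is not set apart from the detection of genes in general. Genes with any read numbered 6675 to 10769 in E14.5 positive cells and 5532 to 8891 in E14.5 negative cells. At P5 they numbered 3991 to 8786 in positive and 2994 to 8205 in negative cells. A cell reached 10 CPM for 5 to 9 of the 10 genes among E14.5 positive cells (median 7) and for 4 to 9 among E14.5 negative cells (median 6). The P5 positive cells reached it for 1 to 7 (median 4) and the P5 negative cells for 1 to 4 (median 2.5). The P5 positive cells L2P7, with 7 genes, and L2P8, with 6, lay at or above the median of E14.5 negative cells, and the embryonic cell N21, with 4 genes, lay at the P5 positive median. The P5 positive cell with a single gene at 10 CPM was L2P10, whose cardiomyocyte markers summed to 73487 CPM and whose G2/M genes summed to 29.7 CPM, the lowest G2/M sum of its group.

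**Figure D1:**
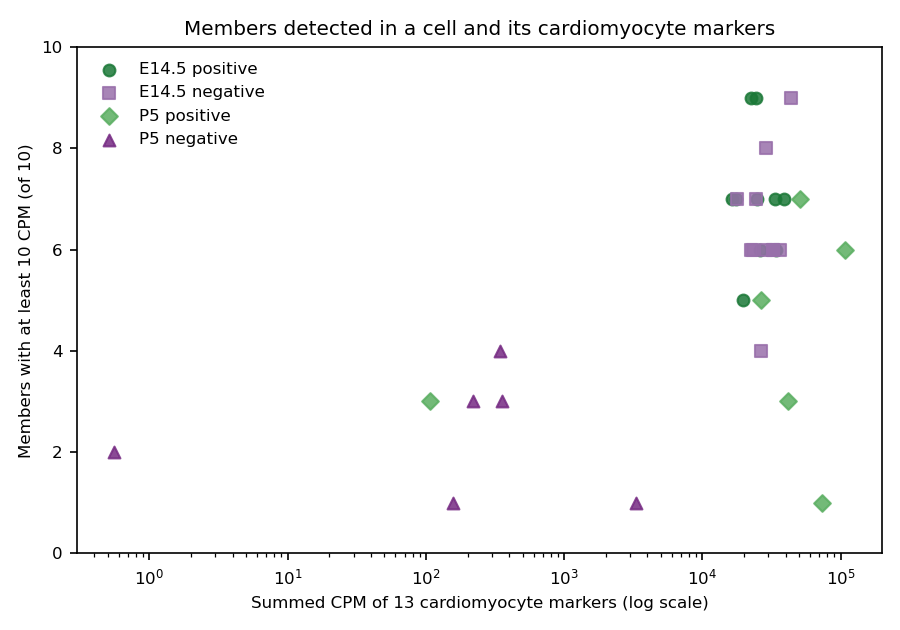
Number of the 10 genes with at least 10 CPM in each cell (vertical axis) against the summed CPM of 13 cardiomyocyte markers in that cell (horizontal axis, log scale), 1 point per cell. Embryonic cells lie between 4 and 9 genes at 16259 CPM or more, and the P5 negative cells lie at 1 to 4 genes and at most 3290 CPM.

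Tbx20 and Hey2 varied most alike of all pairs over the 33 cells, but not over the 21 embryonic cells, and both were lower in P5 positive cells. Mef2c, unlike Mef2a, lay in 5 of the 6 cells led by endothelial markers within its range of E14.5 positive cells. For these reasons promoter sequences are shown for these 4 genes. They come from RefSeq on GRCm38.p6, cover the 250 bases before a transcript start, and are written 5' to 3' on the gene's strand. Tbx20 lies at chr9:24774304-24774553 (minus strand), Hey2 at chr10:30842784-30843033 (minus), Mef2a at chr7:67372851-67373108 (minus, with 8 bases past the start) and Mef2c at chr13:83503784-83504033 (plus, the first of 3 starts). Capitals mark a MEF2 consensus match in Mef2a and a TATAAA match, read on the opposite strand, in Mef2c.
Tbx20: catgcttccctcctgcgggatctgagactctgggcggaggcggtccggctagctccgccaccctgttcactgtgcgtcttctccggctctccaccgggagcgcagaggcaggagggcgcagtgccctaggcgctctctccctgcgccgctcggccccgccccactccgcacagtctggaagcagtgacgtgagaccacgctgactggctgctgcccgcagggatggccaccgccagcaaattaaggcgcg
Hey2: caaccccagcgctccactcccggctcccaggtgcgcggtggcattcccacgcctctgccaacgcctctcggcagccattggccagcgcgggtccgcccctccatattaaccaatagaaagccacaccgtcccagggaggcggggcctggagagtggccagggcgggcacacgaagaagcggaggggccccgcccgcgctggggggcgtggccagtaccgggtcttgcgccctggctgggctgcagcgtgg
Mef2a: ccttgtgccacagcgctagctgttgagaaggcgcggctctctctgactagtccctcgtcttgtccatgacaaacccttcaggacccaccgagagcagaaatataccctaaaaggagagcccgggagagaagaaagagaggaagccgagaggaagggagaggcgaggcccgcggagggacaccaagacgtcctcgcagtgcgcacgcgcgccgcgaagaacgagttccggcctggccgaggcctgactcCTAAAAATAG
Mef2c: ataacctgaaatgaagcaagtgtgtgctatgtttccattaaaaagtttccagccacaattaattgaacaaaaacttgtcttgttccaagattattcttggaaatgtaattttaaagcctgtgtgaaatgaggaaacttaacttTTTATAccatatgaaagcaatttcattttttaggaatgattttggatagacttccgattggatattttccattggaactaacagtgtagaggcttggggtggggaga

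The RefSeq table held promoters for 7 of the 10 genes, in 9 windows of 300 bases, of which 250 lie before the start. Searched on both strands were the GATA motif GATAAG, the T-box motif AGGTGT, the MEF2 consensus, the E-box CANNTG, its special case CACGTG bound by HEY proteins, the MEIS motif TGACAG and TATAAA. Mef2a was the only one of the 9 windows with a MEF2 match, CTAAAAATAG, whose first base lies at position -2 from the start; 3.19% of 32851 promoters held such a match. A window of Mef2c at its second start held AGGTGT at position -216, a motif found in 13.7% of all promoters. TATAAA was found on the opposite strand in 2 of the 3 Mef2c windows, against 13.6% of all promoters. The window at the second start is among these 2, and the bases after that start were in no GENCODE transcript of Mef2c. For every other window they were in a transcript of the gene. The windows of Tbx20, Hey2, Irx4, Hand2 and Meis1 held no match other than E-boxes, which 72.3% of promoters hold, and Tbx20 held none of the motifs. GATAAG (7.44% of promoters), CACGTG (7.15%) and TGACAG (19.2%) were in none of the 9 windows. The windows of Tbx20, Hey2 and Irx4 were rich in G and C, at 68.3%, 72.0% and 70.7%, against a median of 52.7%, while those of Mef2c had 35.7% to 48.3%. These matches describe the letters in the windows and were not tested for binding.

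**Figure D2:**
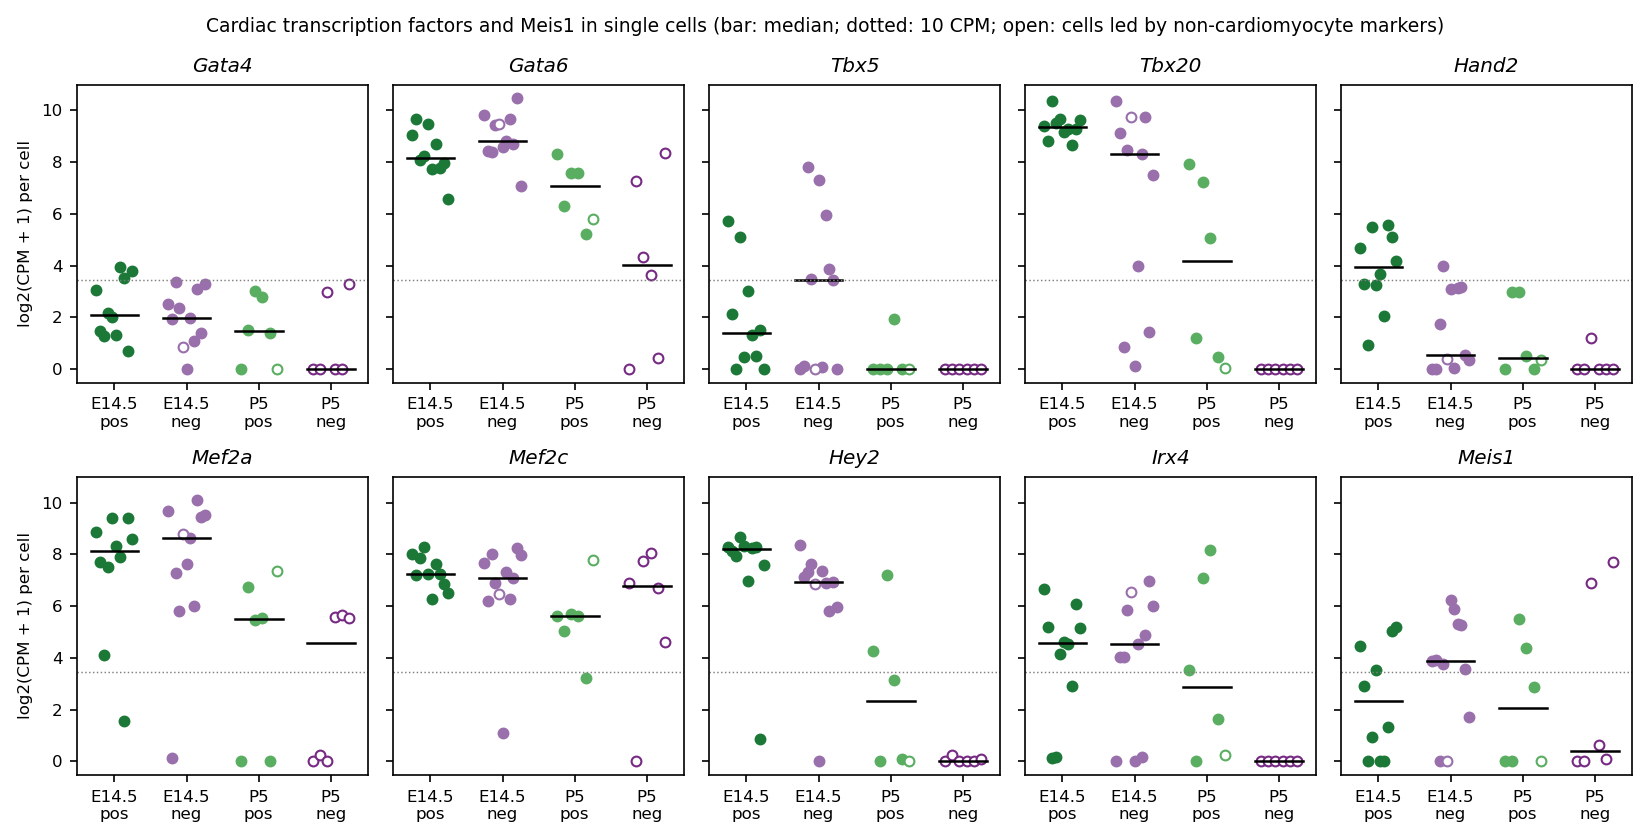
CPM of each gene in every cell, as log2(CPM + 1), by group; each point is 1 cell, the bar is the group's median, the dotted line marks 10 CPM, and open points are cells led by markers of other cell types. Tbx20 lies between 409 and 1307 CPM in all E14.5 positive cells, and Tbx5, Tbx20 and Irx4 are at 0 in all 6 P5 negative cells.

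Among the GATA factors, Gata6 was the abundant one and Gata4 was low throughout. Gata4, on chromosome 14 (63198922 to 63271692, minus strand, GRCm38), had 0.625 to 14.5 CPM in E14.5 positive cells (median 3.25) and 0 to 9.31 CPM in E14.5 negative cells (median 2.95). The P5 positive cells had 0 to 7.03 CPM of it (median 1.75) and in P5 negative cells 0 to 8.90 CPM (median 0). Gata4 passed 10 CPM in 3 of 33 cells, all of them E14.5 positive (G25, G27 and G29), and all 4 ranges overlapped. Gata6 had 93.9 to 814 CPM in E14.5 positive cells (median 287) and 134 to 1425 CPM in E14.5 negative cells (median 449.5). Its P5 positive cells had 36.6 to 314 CPM (median 134). Gata6 was therefore above 10 CPM in every cell of these 3 groups, as was the case for no other gene of the 10. In P5 negative cells it ranged from 0 to 331 CPM (median 15.2), and L2N12, the cell led by fibroblast and mural markers, held 79.3% of the group's Gata6 counts.

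The T-box factors differed in which embryonic cells carried them. Tbx20, on chromosome 9 (24718138 to 24774303, minus strand), a factor needed for growth of the chamber myocardium, had 409 to 1307 CPM in E14.5 positive cells (median 651), so that all 10 of 10 cells were above 10 CPM (exact interval 69.2% to 100%). In E14.5 negative cells Tbx20 ran from 0.0804 to 1317 CPM (median 318). Of these 11 cells, 3 were below 2 CPM (N7 at 0.836, N21 at 0.0804 and N28 at 1.72) and N23 was at 14.8 CPM, while the other 7 had at least 178 CPM. P5 positive cells had 0.0444 to 240 CPM (median 17.1), all below the lowest E14.5 positive cell. The highest were L1P5 at 240 CPM and L2P7 at 149 CPM, and the lowest was L2P12. No count of Tbx20 was found in any P5 negative cell, and the upper limit of the exact interval for the group was 0.0445 CPM. The floor of 3 counts over the group, used for bounds below, corresponds to 0.0362 CPM.

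Tbx5, on chromosome 5 (119832668 to 119885219, plus strand), known for its role in the atria and the left ventricle and as the gene of a human heart and limb syndrome, was patchy. In E14.5 positive cells it had 0 to 52.1 CPM (median 1.66), with G1 at 52.1 and G6 at 33.4 CPM as the only cells above 10 CPM. In E14.5 negative cells it had 0 to 225 CPM (median 9.77), and N7 at 225, N21 at 157 and N24 at 60.9 CPM led the group. The cells N7 and N21, highest in Tbx5, were among the 3 lowest E14.5 negative cells in Tbx20; over the 21 embryonic cells the Pearson r of Tbx5 with Tbx20 on log2(CPM + 1) was -0.53. In P5 cells Tbx5 was found in L2P8 alone, at 2.88 CPM.

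Hand2, on chromosome 8 (57320983 to 57324633, plus strand), known for its role in the right ventricle, had the highest ratio of positive to negative cells at E14.5. It had 0.934 to 46.3 CPM in E14.5 positive cells (median 14.5) and 0 to 14.9 CPM in E14.5 negative cells (median 0.465). At least 10 CPM was reached in 6 of 10 positive cells (exact interval 26.2% to 87.8%) and in 1 of 11 negative cells (0.230% to 41.3%), N8. Hand2 reached at most 6.95 CPM in P5 positive cells (L2P7) and 1.30 CPM in P5 negative cells (L2N7). Of the exonic bases of Hand2, 461 (19.6%) are shared with the antisense gene Hand2os1, and without a stated strand setting reads of the genes cannot be told apart.

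The MEF2 factors, which bind A and T rich sites in muscle genes, were broadly present in embryonic cells. Mef2a, on chromosome 7 (67231163 to 67372858, minus strand), had 1.92 to 685 CPM in E14.5 positive cells (median 280) and 0.0937 to 1109 CPM in E14.5 negative cells (median 397). In P5 positive cells it had 0 to 165 CPM (median 44.3), and in P5 negative cells 0 to 50.2 CPM (median 23.1). Mef2a was below 10 CPM in 7 of the 33 cells: G27, N5, L1P5, L2P10, L1N3, L2N4 and L2N7. Mef2c, on chromosome 13 (83504034 to 83667080, plus strand), had 75.9 to 311 CPM in E14.5 positive cells (median 150.3) and 1.13 to 300 CPM in E14.5 negative cells (median 137). In P5 positive cells it had 8.43 to 222 CPM (median 48.0) and in P5 negative cells 0 to 264 CPM (median 110). Mef2c thus had its highest P5 values in cells led by endothelial markers: L2N9 at 264, L2P12 at 222 and L2N7 at 215 CPM. The 5 P5 positive cells with cardiomyocyte markers lay between 8.43 and 50.5 CPM.

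The ventricular factors Hey2 and Irx4 were present in embryonic cells and in some P5 positive cells, and almost absent from P5 negative cells. Hey2, on chromosome 10 (30832359 to 30842801, minus strand), is a repressor downstream of Notch found in the compact ventricular wall. It had 0.833 to 406 CPM in E14.5 positive cells (median 295). The low value was that of G28, and the other 9 cells had at least 126 CPM. In E14.5 negative cells Hey2 had 0 to 326 CPM (median 120), with N21 alone at 0. Among P5 positive cells it had 0 to 146 CPM (median 4.003); L2P7 held 87.6% of the group's counts. The P5 negative cells held 2 counts of Hey2 in all. Irx4, on chromosome 13 (73260479 to 73269608, plus strand), an Iroquois homeobox factor of the ventricles, had 0.104 to 101 CPM in E14.5 positive cells (median 23.01) and 0 to 125 CPM in E14.5 negative cells (median 22.2). Among P5 positive cells it had 0 to 290 CPM (median 6.38), with L2P8 at 290 and L2P7 at 134 CPM and the others at 10.6 CPM or less. No count of Irx4 was found in P5 negative cells.

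In the embryonic cell N21 several of the factors were missing while contractile genes were present. Hey2, Irx4 and Gata4 had no count there, Tbx20 was at 0.0804 and Mef2c at 1.13 CPM. Gata6, at 387 CPM, Mef2a, at 195 CPM, and Tbx5, at 157 CPM, were present, and Hand2 was at 7.48 CPM. Meis1, at 74.5 CPM, was the highest of the embryonic cells. Of the 8 genes in the list for the ventricles and the compact wall, 5 had at least 10 CPM in N21: Myl2 (3448 CPM, against a group median of 4578), Myh7 (2413), Myl3 (1652), Lbh (389) and Mycn (84.1). Fhl2 was at 7.72 CPM. Of the 10 measured genes in the list for atria, trabeculae and the conduction system, 4 had at least 10 CPM in N21: Myl4 (426), Tbx3 (174), Myl7 (103) and Cited1 (10.4), and the other 6, Hcn4, Gja5 and Nppa among them, had 0 to 0.965 CPM. The leukocyte markers of N21 summed to 379 CPM, beside 26701 CPM for its cardiomyocyte markers. N21 was chosen for description after its values were seen.

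Meis1, on chromosome 11 (18879817 to 19018985, minus strand), was low and uneven in cardiomyocytes of both ages. It had 0 to 35.3 CPM in E14.5 positive cells (median 4.04) and 0 to 74.5 CPM in E14.5 negative cells (median 13.9). At least 10 CPM was reached in 4 of 10 E14.5 positive cells (exact interval 12.2% to 73.8%) and in 8 of 11 E14.5 negative cells (39.0% to 94.0%). P5 positive cells had 0 to 44.7 CPM of Meis1 (median 3.18), with L2P7 at 44.7 and L2P8 at 20.1 CPM highest. The highest Meis1 values of all were in P5 negative cells without cardiomyocyte markers, L2N12 at 206 CPM and L2N7 at 119 CPM, while the other 4 cells of that group had at most 0.545 CPM. Over all 33 cells Meis1 and the summed G2/M genes had a Pearson r of -0.09, and over the 21 embryonic cells of -0.13, a description with no test. Gm37818 and the antisense gene Gm16140 share 1029 and 896 exonic bases with Meis1.

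**Figure D3:**
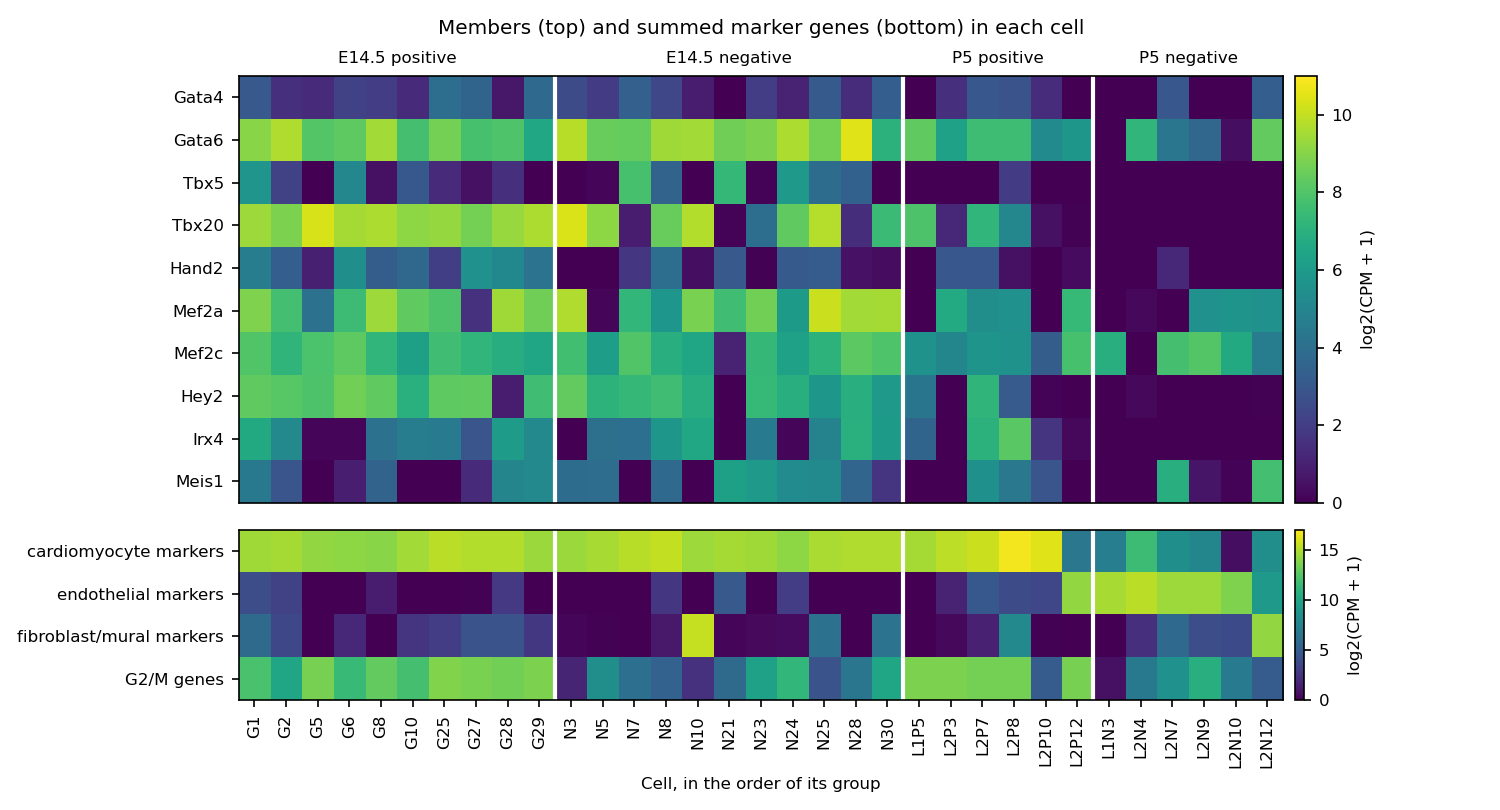
log2(CPM + 1) of the 10 genes (top) and of 4 summed marker lists (bottom) in every cell, in the order of the groups; brighter cells of the grid are higher. Tbx20 and Hey2 are bright across E14.5 positive cells except for Hey2 in G28 at 0.833 CPM, and the endothelial row is bright in L2P12 and in 5 of 6 P5 negative cells.

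To set levels of different genes side by side, the summed CPM was divided by the exonic length of the gene in kb. That length joins the exons of all transcripts of a gene. Whether reads scale with length in these amplified libraries was not tested, so the orders below hold only if they do. Without the division, Mef2c at 157 CPM lay above Irx4 at 29.1 CPM and Hand2 at 24.7 CPM in E14.5 positive cells. In E14.5 positive cells the order was Tbx20 (53.9 CPM per kb), Hey2 (51.7), Gata6 (50.2), Mef2a (20.6), Irx4 (11.2), Hand2 (10.5), Mef2c just below it, Gata4 (1.79), Tbx5 (1.28) and Meis1 (1.15). The leading 3 lay close together, and in the median cell Hey2 led at 64.3 CPM per kb, ahead of Tbx20 at 54.3 and Gata6 at 44.1. Neighbours in this order overlapped between cells, except Mef2c and Gata4: the lowest cell had 4.83 CPM per kb of Mef2c and the highest 3.71 of Gata4. In E14.5 negative cells Gata6 led at 103.5 CPM per kb, ahead of Mef2a at 32.2 and Tbx20 at 27.5. In P5 positive cells Irx4 led at 39.5 CPM per kb, ahead of Gata6 at 18.7 and Mef2c at 5.28, but the median cell had 2.45 CPM per kb of Irx4 and 20.5 of Gata6. The P5 negative order was Gata6 (13.01), Mef2c (8.98) and Meis1 (7.85), followed by Mef2a at 1.66 CPM per kb. The median cell gave another order, in which Mef2c led at 6.97 CPM per kb, ahead of Gata6 (2.33), Mef2a (1.57) and Meis1 (0.0291).

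The comparison of P5 with E14.5 positive cells asks how the factors differ between postnatal and embryonic cells that carry the reporter of cycling. Tbx20 was 17.6-fold lower at P5, Hand2 10.9-fold, Hey2 10.5-fold, Tbx5 7.14-fold, Mef2a 3.95-fold, Gata6 2.69-fold and Gata4 2.18-fold. Irx4 was 3.54-fold higher, and Mef2c and Meis1 differed by less than 2-fold. So 7 of the 10 genes were at least 2-fold lower and 1 was at least 2-fold higher, while 40.9% of the 12262 genes tested, those with 10 counts or more in the pair of groups, were 2-fold lower and 30.3% were 2-fold higher. The median log2 ratio was -1.70 over the 10 genes and -0.39 over all genes tested.

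Tbx20 was the only one of the 10 whose cells did not overlap between P5 and E14.5 positive cells. How many of all genes did not overlap was not counted, so this does not set Tbx20 apart from genes in general. Its summed level was 646 CPM (interval 642 to 650) at E14.5 and 36.7 CPM (35.5 to 37.9) at P5, a log2 ratio of -4.14. The ratio was -5.09 without L2P7 and -3.74 without L2P12. For Hey2 the summed level was 237 against 22.7 CPM, a log2 ratio of -3.39. Without L2P7, the P5 cell that held most of its counts, the ratio was -6.18, and -2.98 without L2P12. For Hand2 it was 24.7 against 2.26 CPM, a log2 ratio of -3.45, which was -4.19 without L2P3 and -3.09 without L2P12. Tbx5 had 5.97 against 0.836 CPM, and its log2 ratio of -2.84 rested on L2P8, without which it was a bound of -7.02; it was -1.95 without G1 and -2.43 without L2P12. These 4 genes were lower at P5 in every alternative computed. So were Gata4, Gata6, Mef2a and Mef2c, though Gata4 and Mef2c not always by 2-fold.

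Irx4, at 103 CPM against 29.1 CPM, was higher at P5 through a single cell. L2P8 held 81.7% of the P5 counts; the log2 ratio was 1.82 with it, -0.13 without it, and 2.23 without L2P12. Mef2a (303 against 76.8 CPM, log2 ratio -1.98) and Mef2c (157 against 82.9 CPM, -0.92) were high in the endothelial cell L2P12, and without that cell their log2 ratios were -2.65 and -2.05. Gata6 had 327 CPM at E14.5 and 122 CPM at P5, a log2 ratio of -1.43, and -1.19 without L2P12. Gata4, at 6.997 against 3.21 CPM, had a log2 ratio of -1.12, which became -0.72 without L2P12, -0.93 without G25, -0.86 without G27 and -0.94 without G29, so it was then no longer 2-fold lower; without L2P8 it was -1.74. Meis1, at 12.1 and 12.8 CPM, had a log2 ratio of 0.07 (interval -0.03 to 0.18), 0.48 without L2P12 and -0.65 without L2P7. Leaving out L2P12 kept the count at 7 lower and 1 higher, with Mef2c in place of Gata4, while 49.0% of all genes were then 2-fold lower and 24.5% higher. The part of the marker difference in these ratios was otherwise not tested.

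**Figure D4:**
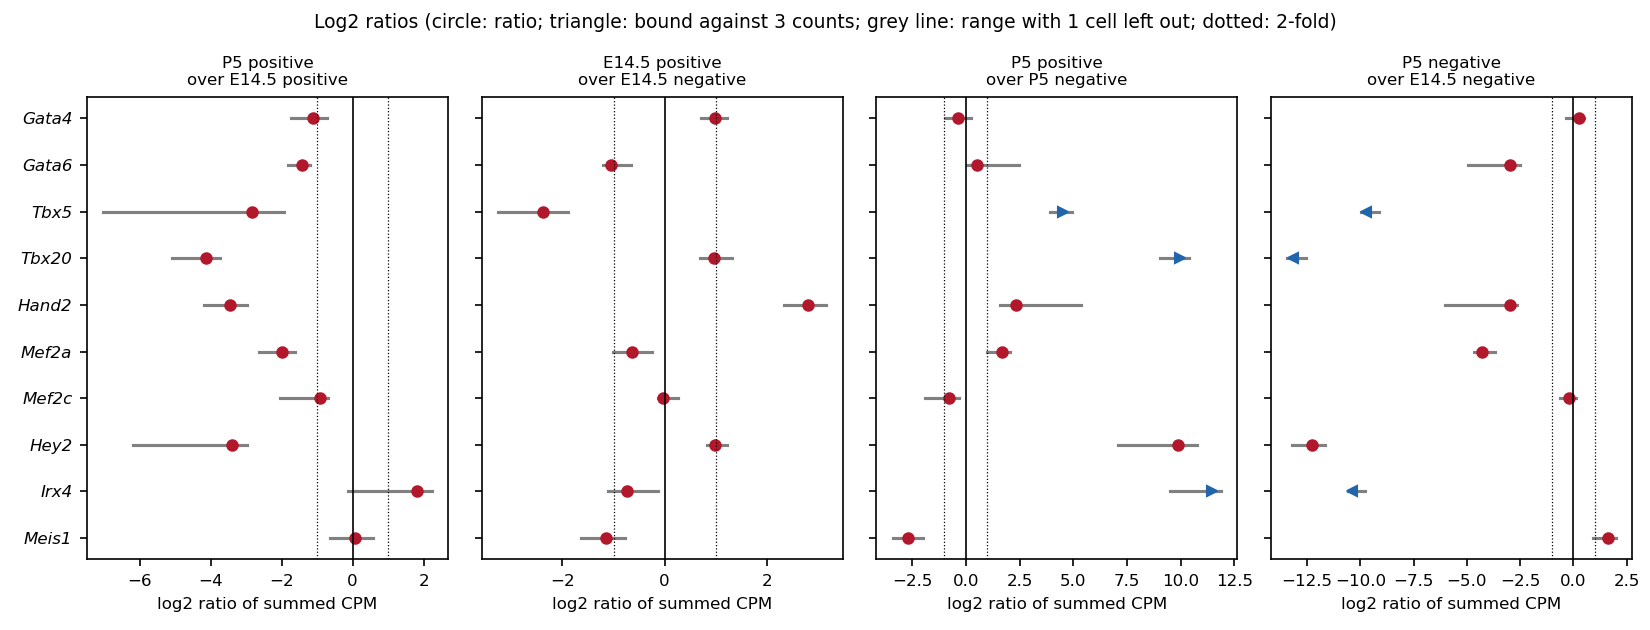
Log2 ratio of summed CPM for each gene in the 4 comparisons (circles; triangles are bounds against 3 counts where a group has none), with the range over leaving out 1 cell at a time (grey line) and dotted lines at 2-fold. For P5 over E14.5 positive cells the grey line of Irx4 runs from -0.13 to 2.23, across 0, and that of Tbx20 from -5.09 to -3.74.

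The comparison of positive with negative cells at E14.5 asks how the factors differ with the reporter while the cardiomyocyte markers are alike, and its clearest difference was in Hand2. Hand2 was 6.99-fold higher in positive cells (24.7 against 3.53 CPM, log2 ratio 2.80, interval 2.69 to 2.92), and the ratio lay between 2.33 and 3.16 with any 1 cell left out. Tbx5 was 5.17-fold lower in positive cells (5.97 against 30.9 CPM, log2 ratio -2.37). With any 1 cell left out its ratio lay between -3.26, without G1, and -1.90. N7, N21 and N24 led its negative cells, and N7 alone held 32.4% of the counts of that group. Meis1 was 2.20-fold lower in positive cells (12.1 against 26.8 CPM, -1.14) and Gata6 2.06-fold lower (327 against 674 CPM, -1.04). One gene of the 10 was therefore 2-fold higher and 3 were 2-fold lower, beside 22.4% and 29% of the 12633 genes tested, so neither share stands apart from that of genes in general. The cells of both groups overlapped for all 10 genes, and how many of all genes overlapped was not counted.

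Several of the other genes lay close to the 2-fold line. Hey2 (237 against 120 CPM, log2 ratio 0.99), Gata4 (6.997 against 3.54 CPM, 0.98) and Tbx20 (646 against 329 CPM, 0.97) were just below it, and their inclusion varied with the scaling, so that edgeR's TMM factors gave 4 genes 2-fold higher. Leaving out single cells ended the 2-fold calls of Gata6 and Meis1. The log2 ratio of Gata6 was -0.65 without N28, -0.90 without G27 or G29 and -0.99 without G28. That of Meis1 was -0.78 without G27, -0.79 without N23, -0.95 without N21 and -0.98 without G25. Mef2a (303 against 473 CPM, -0.64), Irx4 (29.1 against 48.2 CPM, -0.73) and Mef2c (157 against 161 CPM, -0.04) differed by less than 2-fold. N28 also weighed on Irx4, whose log2 ratio was -0.13 without it. Without N10, Tbx20 had a log2 ratio of 1.24, so that 2 genes were 2-fold higher. The other ratios without N10 were 2.67 for Hand2, -2.52 for Tbx5, -1.29 for Meis1, -1.03 for Gata6, 0.98 for Hey2, 0.87 for Gata4, -0.65 for Mef2a, -0.58 for Irx4 and -0.11 for Mef2c.

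The titles of E14.5 cells carry numbers from 1 to 10 or from 21 to 30, whose meaning is not given in the sources used here, and the comparison was repeated within each set. Hand2 had a log2 ratio of 2.05 among the numbers 1 to 10 and 3.13 among 21 to 30, and Tbx5 had -1.28 and -5.08. Hey2 (0.74 and 1.08), Tbx20 (0.34 and 1.40), Gata6 (-0.32 and -1.57) and Irx4 (-0.79 and -0.70) kept their sign. Meis1 had -0.08 among 1 to 10 and -1.17 among 21 to 30. Gata4 (-0.23 and 1.40), Mef2a (0.30 and -0.96) and Mef2c (0.56 and -0.34) had opposite signs in the sets, so no direction is given for them.

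At P5 the comparison of positive with negative cells is also one of cells with and without cardiomyocyte markers, apart from L2P12. Tbx20 (36.7 CPM), Irx4 (103 CPM) and Tbx5 (0.836 CPM) had no count in negative cells. Set against 3 counts over the negative group, they were higher in positive cells by at least 1014-fold (Tbx20), 2847-fold (Irx4) and 23.1-fold (Tbx5). Single cells set the size of these bounds: Tbx20 was at least 525.9-fold higher without L2P7, Irx4 at least 735-fold without L2P8, and Tbx5 had no count in either group without L2P8. Without L2N7, the negative cell with most counts, the bounds were 667-fold (Tbx20), 1873-fold (Irx4) and 15.2-fold (Tbx5). For Hey2 the negative cells held 2 counts, and its log2 ratio was 9.88 (interval 8.02 to 12.92), which was 7.08 without L2P7 and up to 10.79, without L2N4. Hand2 (2.26 against 0.446 CPM, log2 ratio 2.34) and Mef2a (76.8 against 24.3 CPM, 1.66) were also higher; the former was 5.36 as a bound without L2N7 and 1.60 without L2P3, and the latter 0.99 without L2P12 and 1.05 without L2N7. In all, 6 genes were 2-fold higher and 1 was 2-fold lower, beside 34.2% and 39.4% of 11567 genes tested.

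The gene lower in P5 positive cells was Meis1, at 12.8 against 82.7 CPM, a log2 ratio of -2.69, with -3.41 without L2P7 and -2.005 without L2N12. Mef2c (82.9 against 141 CPM, -0.77) had -1.90 without L2P12, since its remaining P5 positive cells were at 50.5 CPM or less. Gata6 (122 against 84.6 CPM, 0.52) had 2.47 without L2N12. Gata4, with 3.21 and 4.17 CPM, had a log2 ratio of -0.38, and leaving out 1 cell moved it between -0.99 and 0.22. In the P5 negative group the level of Meis1 thus rested on L2N12 and L2N7 and that of Gata6 mostly on L2N12. Mef2c passed 10 CPM in 5 of the 6 cells and 100 CPM in 4 of them, and all 6 were led by endothelial or by fibroblast and mural markers.

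Between P5 and E14.5 negative cells, 7 genes were 2-fold lower and 1 was 2-fold higher at P5, beside 41.7% and 33.6% of the 12552 genes tested. Tbx20 (329 CPM at E14.5) was at least 9106-fold lower, Irx4 (48.2 CPM) at least 1332-fold and Tbx5 (30.9 CPM) at least 853-fold. Without L2N7 these bounds were 5989.6-fold, 876-fold and 561-fold, and that of Irx4 was 878-fold without N28. Hey2 had 120 CPM against 2 counts, a log2 ratio of -12.28 (interval -15.32 to -10.42), which lay between -13.18, without L2N4, and -11.67, without L2N7. Mef2a had 473 against 24.3 CPM, a log2 ratio of -4.28, and -3.68 without L2N7. Gata6 (674 against 84.6 CPM) had a log2 ratio of -2.99, and -4.94 without L2N12. Hand2 (3.53 against 0.446 CPM) also had -2.99, and without L2N7, the P5 negative cell with its counts, a bound of -6.01. Mef2c, at 161 and 141 CPM, had a log2 ratio of -0.19 and Gata4, at 3.54 and 4.17 CPM, one of 0.24; the sign of both changed with single cells left out. Meis1 was higher at P5 (26.8 against 82.7 CPM, log2 ratio 1.63), and without L2N12 its log2 ratio was 0.94, below the 2-fold line. This comparison and the other 3 share groups of cells pairwise, so they are not independent of each other.

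Related genes were read from lists of other cardiac transcription factors, of partners and cofactors, and of known targets. Of 23 other cardiac transcription factors tested between P5 and E14.5 positive cells, 16 were 2-fold lower at P5 and 3 were 2-fold higher, with a median log2 ratio of -4.07, beside 40.9% lower and 30.3% higher of all 12262 genes tested and their median of -0.39. Without L2P12, 17 were lower and 1 was higher, beside 49.0% and 24.5% of all genes. Tbx18 had 115 CPM at E14.5 and no count at P5 (at least 3521-fold lower), and Mycn, a Myc family factor of the growing compact wall, had 187 against 11.2 CPM (log2 ratio -4.07). Meis2, the homologue of Meis1, had 237 against 19.0 CPM (log2 ratio -3.64). Among the most abundant, Hopx had 1478 against 634 CPM (-1.22), Tead1 349 against 285 CPM (-0.29) and Hif1a 192 against 126 CPM (-0.61); without L2P12 their log2 ratios were -0.82, 0.10 and -1.47. Nkx2-5, the homeobox partner of Gata4 and Tbx5, was one of the 3 higher at P5, at 19.2 against 4.69 CPM (log2 ratio 2.03, and 2.44 without L2P12).

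Of 20 partners and cofactors tested between P5 and E14.5 positive cells, 8 (40%) were 2-fold higher and 9 (45%) were 2-fold lower at P5, beside the 30.3% and 40.9% of all genes tested. Without L2P12, 8 were higher and 10 lower, beside 24.5% and 49.0% of all genes. Zfpm2, the cofactor of Gata4, had 61.4 CPM at E14.5 and 15.3 CPM at P5 (4.01-fold lower). Smarca4, the ATPase of the BAF complex, was higher at P5 (63.4 against 280 CPM, log2 ratio 2.14). Hdac7 had the highest ratio among partners with at least 50 CPM in either group (0.601 against 62.9 CPM, log2 ratio 6.71), and Hdac9 the lowest (86.4 against 3.93 CPM, -4.46). Hdac7 had a median of 0.122 CPM and a highest cell of 246 CPM in the P5 positive group, and 52.8 to 198 CPM in the P5 negative cells; without L2P12 its P5 level was 3.78 CPM and its log2 ratio 2.65. At E14.5, 1 of 23 partners was 2-fold higher in positive cells and 6 (26.1%) were 2-fold lower, beside 22.4% and 29% of all genes tested; without N10, 3 were higher and 8 lower.

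Among 23 known target genes, 9 were 2-fold higher and 8 were 2-fold lower in P5 than in E14.5 positive cells, with a median log2 ratio of 0.09, beside 30.3% higher and 40.9% lower of all genes tested. Without L2P12, 9 were higher and 6 lower of 22 tested, beside 24.5% and 49.0% of all genes. Myh6, the adult heavy chain, had 8303 CPM at P5 and 251 CPM at E14.5 (log2 ratio 5.05), and Myl7, the atrial light chain, had 193 CPM at E14.5 and no count at P5 (at least 5925-fold lower). The ventricular light chain gene Myl2 had 5997 CPM at E14.5 and 10087 CPM at P5 (log2 ratio 0.75, and 1.15 without L2P12). In P5 negative cells, 22 of 23 targets were 2-fold lower than in E14.5 negative cells, beside 41.7% of all genes tested and the 7 of 10 factors above; several of these targets, such as Tnnt2 and Actc1, are themselves among the cardiomyocyte markers. At E14.5, 3 of 23 targets were 2-fold higher and 1 was 2-fold lower in positive cells, beside 22.4% and 29% of all genes. Without N10, 3 were lower, beside 27.6% of all genes.

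Over all 33 cells, the pair of factors most alike was Tbx20 and Hey2. These had a Pearson r of 0.80 on log2(CPM + 1) over 33 cells, and 0.40 over the 21 embryonic cells. Gata6 and Hey2 had 0.66 over 33 cells and 0.16 over the embryonic cells. Mef2c and Hey2, the pair most alike over the embryonic cells, had 0.49 over 33 cells and 0.70 over the embryonic cells. Cells of a group share their age and sort, and cells without cardiomyocyte markers lie low in most of these genes, so these values describe the 33 libraries only. Among all 7605 genes with at least 10 CPM in at least 6 cells, Tbx5 was most like Adamts19 (r 0.87, and 0.83 over the embryonic cells), Tbx20 like 1200014J11Rik (0.86 and 0.83), and Hey2 like Tbc1d4 (0.84 and 0.71). Mef2c was most like Dnaja2 (0.83 and 0.90), Irx4 like Bche (0.77 and 0.76), Hand2 like 2810408I11Rik (0.77 and 0.74), Mef2a like Trio (0.77 and 0.51) and Meis1 like Ipo8 (0.69 and 0.62). For Gata6 the most alike gene, Csnk1a1, had 0.82 over all cells but 0.22 over embryonic cells. The second gene of Hey2, Myh7, had 0.83 and -0.08, and that of Hand2, the centriole gene Stil, had 0.74 and 0.82.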

How the data were processed

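The data are RNA read counts of 33 single mouse heart cells. Per the submitters' processing notes, the authors used CASAVA 1.8.2, STAR 2.4.0j and HTSeq 0.6.1p1 with mm10, and the deposited values are raw counts per gene. The annotation, strand setting, rule for reads with several matches and any molecular identifiers are not given in the sources used here.

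The genes and lists were chosen with earlier results of these data known, and so were the genes named from lists: the 3 most abundant, the highest and lowest ratios, and, after their values were seen, others. The lists were also recomputed without L2P12 or N10, an alternative chosen after seeing the data. Some list genes are not reported here. Beside each gene the 2 most alike are sought by Pearson r on log2(CPM + 1).

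Each group is 1 sample, so counts were summed and no test was made. A gene is 2-fold higher or lower when its log2 ratio, with 0.5 count added to each side, passes 1; genes needed 10 counts or more in the pair of groups. Printed ratios have no added count. Gene positions come from GENCODE on GRCm38. Python 3.11.15 and, for alternative scaling, edgeR 4.0.16 and DESeq2 1.42.0 were used. On counts simulated for P5 over E14.5 positive cells, 96.0% of 200 changed genes among 14862 were recovered to within 0.1 (log2). Of their intervals, 94.5% held the simulated ratio. The simulated counts had Poisson counting error only, with no spread between cells or from amplification, and the changed genes were well-counted ones. These shares therefore check the calculation and say nothing on how far the real cells vary. Alternatives were other scalings, weights, depths, filters, thresholds and cells.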

Additional observations from a re-analysis of the deposited data

Results flagged for a closer look

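In 4 of 27 groups of cells with a value to compare, a single cell stood further from its neighbour than Dixon's limit for its group size at 95%; for normally distributed values chance gives about 1 in 20, here 1.35 groups. That rate does not hold where the other cells are at 0 or at single reads, as in 3 of the 4, since a cell with reads then stands apart by construction. Only the Hey2 value of G28 is then left, which is no more than the 1.35 groups given by chance. Whether values of single cells are normally distributed was not checked, so no conclusion is drawn from the rate. Hey2 was at 0.833 CPM in the E14.5 positive cell G28, while the next lowest of the 10 cells had 126 CPM. Tbx5 was at 2.88 CPM in the P5 positive cell L2P8 and at 0 in the other 5 cells. Hand2 was at 1.30 CPM in the P5 negative cell L2N7 and at 0 in the other 5. Hey2 was at 0.194 CPM in the P5 negative cell L2N4, against 0.0593 CPM in the next, and these are single reads. In the unchecked E14.5 negative group, Hey2 was at 0 in N21, with the next lowest cell at 55.3 CPM. Mef2c was at 1.13 CPM in N21, against 71.6 CPM in the next lowest cell. Mef2a was at 0.0937 CPM in N5, against 54.7 CPM in the next lowest cell.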

How the results depend on the processing

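Of 72 alternative counts of genes past 2-fold, apart from those that leave out a single cell, 61 were within 1.5 times the printed count. With a 4-fold line, 0 genes were higher and 4 lower in P5 than in E14.5 positive cells, beside 19.8% and 29.1% of all genes tested. With that line 1 was lower in E14.5 positive than negative cells, beside 17.4%. Of the 10, 0 were higher in P5 than in E14.5 negative cells, beside 23.8%. Genes higher in E14.5 positive than negative cells numbered 3 after thinning, 4 with edgeR's TMM factors, 2 with totals without the 20 most abundant genes, 2 without N10 and 4 within the title numbers 21 to 30; within 1 to 10, 1 was lower. After thinning, 2 were lower in P5 positive than negative cells, beside 40.8%. With 1 cell left out, the higher count ran from 0 to 1 for P5 over E14.5 positive cells, from 1 to 3 for E14.5 positive over negative cells and from 0 to 1 for P5 over E14.5 negative cells. The lower count ran from 1 to 4 for E14.5 positive over negative cells, beside 27.6% to 31.7% of all genes. For P5 positive over negative cells it ran from 1 to 2, beside 34.7% to 47.0%. The called ratio that changed sign was that of Irx4 in P5 over E14.5 positive cells, which ran from -0.13, without L2P8, to 2.23, without L2P12. Of 899 alternative ratios 868 kept their sign, and 30 of 40 ratios moved by over 1.5-fold when 1 cell was left out. DESeq2 size factors raised the median log2 ratio of all genes by 0.38 in P5 over E14.5 positive cells, so that Gata4 was then no longer 2-fold lower, at -0.74.

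No paired analysis was possible because each group is 1 sample and the cell numbers tie no cells together. Without replicates these values describe 33 cells, and single cells decide many of them. A comparison of P5 positive with P5 negative cells without those led by other markers gives no value, as no P5 negative cell remains.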
